A study of Mus musculus with 24 samples.

Results

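The genes described here encode the pore-forming alpha-1 subunits of voltage-gated calcium channels. The 8 members, Cacna1a, Cacna1b, Cacna1c, Cacna1d, Cacna1e, Cacna1g, Cacna1h and Cacna1i, were chosen by gene symbol from the 30270 genes listed in the deposited tables. Earlier results of these data were known when they were chosen. All 8 were measured in all 24 libraries and passed the filter on low values in every comparison. RNA-seq had been done on frozen micropunches of the nucleus accumbens and the VTA from 12 C57BL/6 mice, 3 in each of 4 groups, so that each mouse gave 1 library per region. The groups were wild-type mice (Vdr+/+) given PBS, wild-type mice given morphine sulfate at 5 mg/kg, Vdr-/- mice given PBS and Vdr-/- mice given the same dose of morphine, and tissue was taken 90 min after a single intraperitoneal injection. Vdr-/- mice lack the vitamin D receptor in every tissue, and according to the study's methods their diet was enriched in calcium, lactose and phosphate. The diet of the wild-type mice in this experiment is not given in the sources used here, so genotype and diet cannot be told apart. The ages and sexes of these mice are not given there either.

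A voltage-gated calcium channel opens when the membrane is depolarised and lets calcium into the cell, where it triggers transmitter release, shapes firing and reaches gene expression through calmodulin-dependent enzymes. The alpha-1 subunit carries the voltage sensors, the pore and the selectivity filter, and it names the type of current. Cacna1c and Cacna1d encode the L-type channels, which in neurons couple synaptic activity to transcription, and the channel of Cacna1d, which opens at lower voltages, takes part in the pacemaking of midbrain dopamine neurons. Cacna1a (P/Q-type) and Cacna1b (N-type) encode the main channels of presynaptic terminals, which are inhibited by opioid receptors through G proteins, and Cacna1e encodes the R-type channel. Cacna1g, Cacna1h and Cacna1i encode the low-voltage-activated T-type channels, which support rebound bursts and rhythmic firing.

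The high-voltage-activated and the T-type members are told apart in the selectivity filter, where each of the homologous repeats of the protein lends 1 acidic residue to a ring that binds calcium. The 24 bases of coding sequence around the filter codon of the third repeat are shown for all 8 members because they separate the groups by which the results are ordered. They were read 5′ to 3′ from the GENCODE M21 transcript with the longest open reading frame of each gene, and the capitals mark the filter codon.
Cacna1a: gtgtccacaggaGAGggctggcca
Cacna1b: gtgtccacgggaGAGgggtggccc
Cacna1e: gtctctacagggGAAggatggcct
Cacna1c: gtctccaccttcGAAgggtggcca
Cacna1d: gtctcaacttttGAGggctggccc
Cacna1g: ctggcctccaagGATggctgggtt
Cacna1h: ctgtcatccaagGATggctgggta
Cacna1i: ttggcctccaagGATggctgggtg
The codon was one for glutamate in the 5 high-voltage-activated members (GAG or GAA) and one for aspartate (GAT) in the 3 T-type members. The sequences of the members were otherwise little shared. Of all words of 25 bases in the transcripts of a member, at most 1.46% also occurred in another member (Cacna1g) and at most 1.04% in any other gene (Cacna1e).

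The members lie on 8 chromosomes of the GRCm38 assembly. Among the high-voltage-activated members, Cacna1a lies at chr8:84388440-84640246 on the plus strand, and on the minus strand lie Cacna1b at chr2:24603887-24763152, Cacna1c at chr6:118587240-119196418, Cacna1d at chr14:30039939-30491455 and Cacna1e at chr1:154390731-154884501. The T-type members are Cacna1g at chr11:94408391-94474198 and Cacna1h at chr17:25374285-25433783, both on the minus strand, and Cacna1i at chr15:80287238-80398279 on the plus strand. Cacna1i is 17.5 megabases from Vdr on the same chromosome. All are long genes: their exons together cover 9763 bases (Cacna1h) to 25228 bases (Cacna1e), against a median of 4254 bases for the genes tested, which places them at the 90.2nd to 99.8th percentile. Some share their locus with a gene on the other strand, and the strand setting of the read counting is not given in the sources used here. The largest such neighbours had at most 690 reads in a library (Dcp1b, within Cacna1c) and 956 reads (Dcp1a, beside Cacna1d). RefSeq promoters of 5 members (8 promoters of 300 bases, GRCm38.p6) held no match to AGGTCA, a hexamer bound by the vitamin D receptor, on either strand, while 16.3% of all 32851 promoters in that table held one. This says only that these letters are not in those windows.

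The libraries held 9328726 to 30184426 reads on genes, which gave 798 to 21650 reads per member and library. Nucleus accumbens and VTA libraries were separated by their markers. The summed level of 6 medium spiny neuron genes was 1255 to 2543 counts per 1000000 reads (CPM) in the nucleus accumbens and 99.4 to 180 CPM in the VTA, and that of 6 dopamine neuron genes was 14.8 to 26.7 CPM and 91.9 to 2325 CPM in that order, with no marker of either list at 0. Within the VTA the dopamine neuron sum varied widely: it was 1817 to 2325 CPM in wild-type PBS mice, 91.9 to 351 CPM in wild-type morphine mice, 309 to 1729 CPM in Vdr-/- PBS mice and 387 to 838 CPM in Vdr-/- morphine mice. The sum of 6 genes of the neighbouring hypothalamus and mammillary nuclei reached 184 to 971 CPM in the wild-type morphine VTA libraries, against 21.8 to 117 CPM in the wild-type PBS ones. Between regions, 5 cortical excitatory neuron genes summed to 424 to 1189 CPM in the nucleus accumbens and 76.4 to 224 CPM in the VTA. The sum of 5 thalamus genes was 56.9 to 127 CPM and 130 to 716 CPM in that order. The part of these tissues in the region differences was not tested. Vdr itself had 0 to 17 reads in every library, 0 to 17 in Vdr-/- and 1 to 17 in wild-type libraries, too few to check the genotype labels. In 1 library, the nucleus accumbens of wild-type PBS mouse 2, longer genes were lower than in the other libraries of the region, with a Spearman's rho across 15980 genes of -0.329 between exon length and deviation, against -0.0771 to 0.178 in the other 11. The values of Cacna1e that this library moved are given with and without it. As these are bulk samples, fewer cells of a type and less RNA per cell cannot be told apart.

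Levels were first compared between subunits, per length, as reads per kilobase of exon per 1000000 reads on genes (RPKM), with the exons of a gene merged. In the nucleus accumbens Cacna1e stood first with a median of 34.3 RPKM over the 12 libraries (range 13.5 to 38.0), and it lay above Cacna1b, the next, in 11 of 12 libraries. The exception was the library of wild-type PBS mouse 2. The presynaptic members followed, with Cacna1b at 22.7 RPKM (18.7 to 23.5) above Cacna1a at 17.6 RPKM (15.8 to 18.5) in 12 of 12 libraries. Cacna1h at 14.9 RPKM and Cacna1i at 14.5 RPKM came next and were not separated, since Cacna1h was the higher in 7 of 12 libraries. Cacna1g at 9.21 RPKM and the L-type Cacna1c at 9.07 RPKM were likewise not separated (7 of 12), and Cacna1d was last at 7.82 RPKM, below Cacna1c in 12 of 12 libraries.

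In the VTA the order began with a T-type subunit. Cacna1g had a median of 22.4 RPKM (17.1 to 29.6) and lay above Cacna1b, at 19.9 RPKM (17.4 to 25.6), in 8 of 12 libraries. Cacna1a followed at 17.5 RPKM (16.7 to 19.2), below Cacna1b in 12 of 12 libraries and above Cacna1i, at 13 RPKM, in 12 of 12. Cacna1e, first in the nucleus accumbens, was here at 11.9 RPKM (10.8 to 18.4), in rank 5, and was not separated from Cacna1i (7 of 12). Cacna1h at 8.63 RPKM, Cacna1c at 6.72 RPKM and Cacna1d at 5.28 RPKM closed the order, and Cacna1c was above Cacna1d in 8 of 12 libraries. The 2 remaining family members, which are not among the 8, were near 0: Cacna1f, the retinal channel, had 0 to 11 reads and Cacna1s, the skeletal muscle channel, 5 to 38 reads in a library. Part of the order depends on the length used. Per length of the longest transcript, Cacna1a (25.3 RPKM in the nucleus accumbens) stood above Cacna1b (23.1 RPKM), and Cacna1e in the VTA moved up 1 place to 20.2 RPKM, next to Cacna1b at 20.3 RPKM, which was the higher in only 3 of 12 libraries, while the first and last places were kept in both regions.

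**Figure D1:**
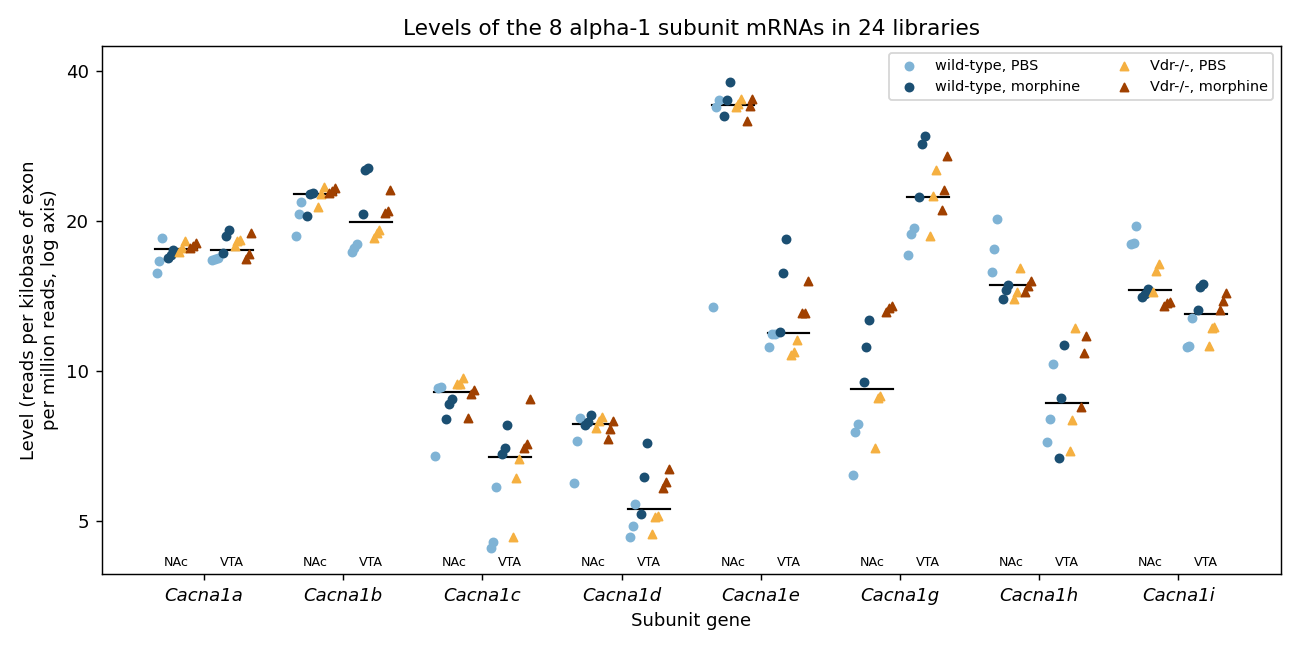
Level of each subunit mRNA in reads per kilobase of exon per 1000000 reads (log axis), with 1 point per library, the 12 nucleus accumbens (NAc) libraries left and the 12 VTA libraries right, colours for the 4 groups and black lines for the medians. Cacna1e is highest in the NAc at a median of 34.3 RPKM with 1 wild-type PBS library far below at 13.5, and Cacna1g is highest in the VTA at 22.4 RPKM.

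The regions were then compared within mice, with the reads of all 24 libraries scaled together and the difference between nucleus accumbens and VTA taken in each of the 12 mice. By limma across 16147 genes, 7 of the 8 members differed between regions at an adjusted p under 0.05, 6 higher in the nucleus accumbens and 1 higher in the VTA. Regional differences were common: 72.9% of all genes tested were called, 35.1% higher in the nucleus accumbens and 37.8% higher in the VTA, so the count of 7 is near the background. The sign was the same in 12 of 12 mice for 5 members (Cacna1c, Cacna1d, Cacna1e, Cacna1g and Cacna1h) and for 42.8% of all genes. What differed among the members was the size and direction.

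Cacna1e, the R-type subunit, had the largest difference. Its scaled reads ran from 5756 to 16368 in the nucleus accumbens (median 14880) and from 4437 to 7402 in the VTA (median 4992), and it was higher in the nucleus accumbens in 12 of 12 mice. The mean difference was 1.38 ± 0.10 on the log2 scale (SE), 2.60-fold, with an exact two-sided sign-flip permutation p of 0.000488, the smallest that 12 mice allow. The lowest nucleus accumbens value was again that of wild-type PBS mouse 2. Leaving out 1 mouse at a time gave mean differences of 1.32 to 1.49 log2.

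Cacna1g was the only member higher in the VTA. Its scaled reads were 1088 to 2307 in the nucleus accumbens (median 1597) against 2832 to 5002 in the VTA (median 3659). In 12 of 12 mice Cacna1g was higher in the VTA, by 2.23-fold on average (-1.16 ± 0.07 log2, exact permutation p = 0.000488). The other T-type members went the other way. Cacna1h had 2278 to 3345 scaled reads in the nucleus accumbens (median 2443) against 1088 to 1953 in the VTA (median 1396), a 1.79-fold difference (0.84 ± 0.08 log2, exact permutation p = 0.000488). Cacna1i was higher in the nucleus accumbens by 0.32 ± 0.03 log2 (10 of 12 mice, exact permutation p = 0.0044), a mean that covered different values in the PBS and morphine mice.

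Both L-type subunits were higher in the nucleus accumbens in 12 of 12 mice, Cacna1c by 0.54 ± 0.06 log2 (1.46-fold) and Cacna1d by 0.53 ± 0.04 log2 (1.45-fold), each with an exact permutation p of 0.000488. Their libraries overlapped between regions, and within mice the difference of Cacna1c ran from 0.04 to 1.14 log2. The presynaptic subunits differed least. Cacna1b was 1.13-fold higher in the nucleus accumbens (0.17 ± 0.04 log2, 10 of 12 mice, exact permutation p = 0.0176, limma adjusted p = 0.001), and Cacna1a differed by 0.04 ± 0.03 log2 with 8 of 12 mice higher (exact permutation p = 0.236), which did not pass the test.

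Within the groups of 3 mice, 7 of 8 members were called in wild-type PBS mice (57.2% of all genes) and 7 in Vdr-/- PBS mice (55.2%), but 4 in wild-type morphine mice (45.5%) and 4 in Vdr-/- morphine mice (43.5%). The same 4, Cacna1d, Cacna1e, Cacna1g and Cacna1h, were called in all groups, whereas Cacna1b, Cacna1c and Cacna1i were called only in the PBS groups. For Cacna1c the difference was 0.84 log2 in wild-type and 0.83 in Vdr-/- PBS mice, against 0.27 and 0.25 in the morphine mice. A call in some groups and not in others does not show that they differ, and this was tested directly.

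**Figure D2:**
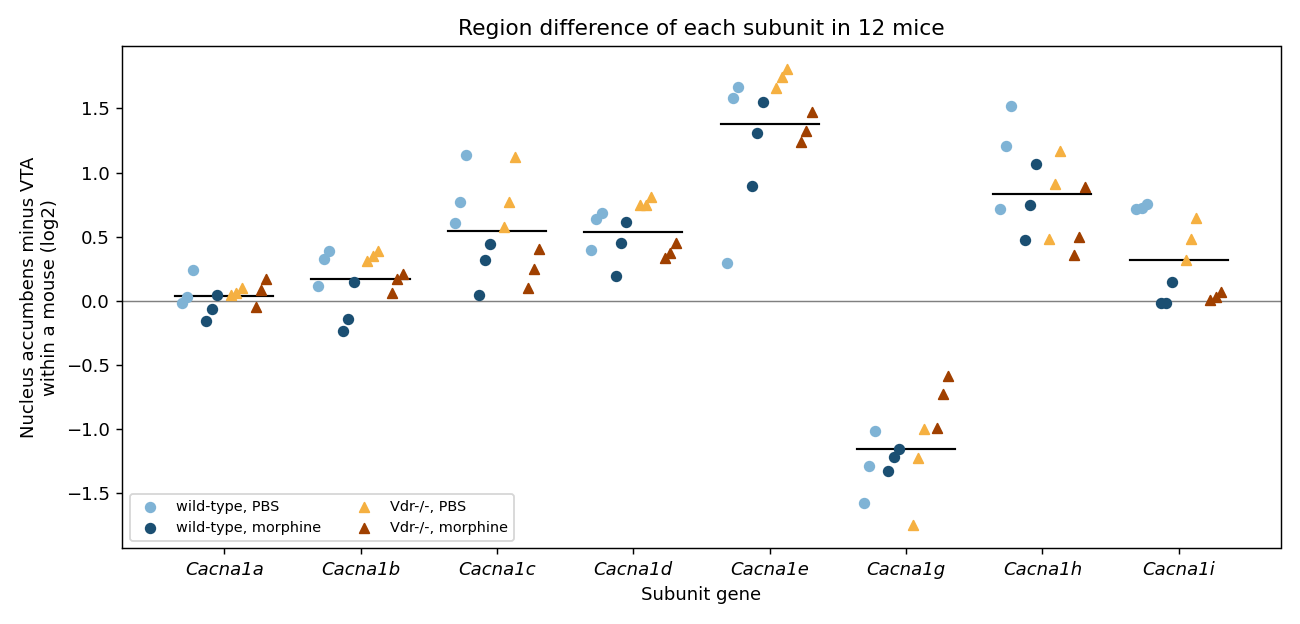
Difference in scaled reads between nucleus accumbens and VTA within each of the 12 mice (log2, positive values higher in the nucleus accumbens), with colours for the 4 groups and black lines for the means over 12 mice. Every mouse is below 0 for Cacna1g and above 0 for Cacna1c, Cacna1d, Cacna1e and Cacna1h, and the 6 morphine mice lie near 0 for Cacna1i.

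The region difference of Cacna1i depended on the injection. In wild-type PBS mice Cacna1i had 3004, 3097 and 3388 scaled reads in the nucleus accumbens and 1832, 1833 and 2056 in the VTA. In wild-type morphine mice it had 2322, 2395 and 2409 in the former against 2176, 2347 and 2432 in the latter. The regions were thus far apart after PBS (0.73 ± 0.06 log2) and overlapped after morphine (0.04 ± 0.06 log2). The change in the region difference was -0.69 ± 0.09 log2 (limma adjusted p = 0.00164), in a comparison where 6.69% of all genes were called. Vdr-/- mice showed the same order, with 2459, 2721 and 2825 scaled reads in the nucleus accumbens and 1804, 1954 and 1975 in the VTA after PBS, and 2247 to 2295 against 2139 to 2291 after morphine. Here the change was -0.45 ± 0.09 log2 (limma adjusted p = 0.0473), where 0.545% of all genes were called, and this call was lost in 5 of 9 other settings. It was kept without wild-type morphine mouse 1.1, wild-type PBS mouse 2 or Vdr-/- PBS mouse 8 and lost without any 1 of the other 9 mice (adjusted p = 0.0572 to 0.191).

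Tissue markers differed between the same libraries in both regions. In the nucleus accumbens the medium spiny neuron sum was 2229 to 2543 CPM after PBS and 1389 to 1769 CPM after morphine in wild-type mice. In Vdr-/- mice it was 1947 to 2238 against 1255 to 1474 CPM. In the VTA the dopamine neuron sum was 1817 to 2325 CPM after PBS and 91.9 to 351 CPM after morphine in wild-type mice. That of 5 oligodendrocyte genes was 11407 to 12425 against 5782 to 9529 CPM. In Vdr-/- mice the dopamine neuron ranges overlapped (309 to 1729 against 387 to 838 CPM) and the oligodendrocyte ranges did not (11197 to 11617 against 7616 to 8426 CPM). Their part in the result for Cacna1i was not tested.

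No other member passed this test in either genotype. For Cacna1c the values were -0.57 ± 0.17 log2 in wild-type (adjusted p = 0.0609) and -0.58 ± 0.17 in Vdr-/- mice (adjusted p = 0.154), and for Cacna1b in wild-type mice -0.35 ± 0.10 (adjusted p = 0.0639). Without wild-type PBS mouse 2, Cacna1b, Cacna1c and Cacna1i were called in wild-type mice. The share of all genes called in that fit is not given here, so these calls cannot be set against it. The region difference did not depend on genotype at this sample size for any member, with 0 of 8 called by limma in PBS and 0 of 8 in morphine mice, where 0% of all genes were called. At an unadjusted p under 0.05 there was 1 member in each of these comparisons, beside 7.11% and 4.31% of all genes, and edgeR also called 0 of 8. These were Cacna1i in PBS mice (-0.25 ± 0.09 log2, limma adjusted p = 0.639) and Cacna1g in morphine mice. The largest values were 0.55 ± 0.29 log2 for Cacna1e in PBS mice, which was 0.11 without wild-type PBS mouse 2, and 0.47 ± 0.18 for Cacna1g in morphine mice.

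**Figure D3:**
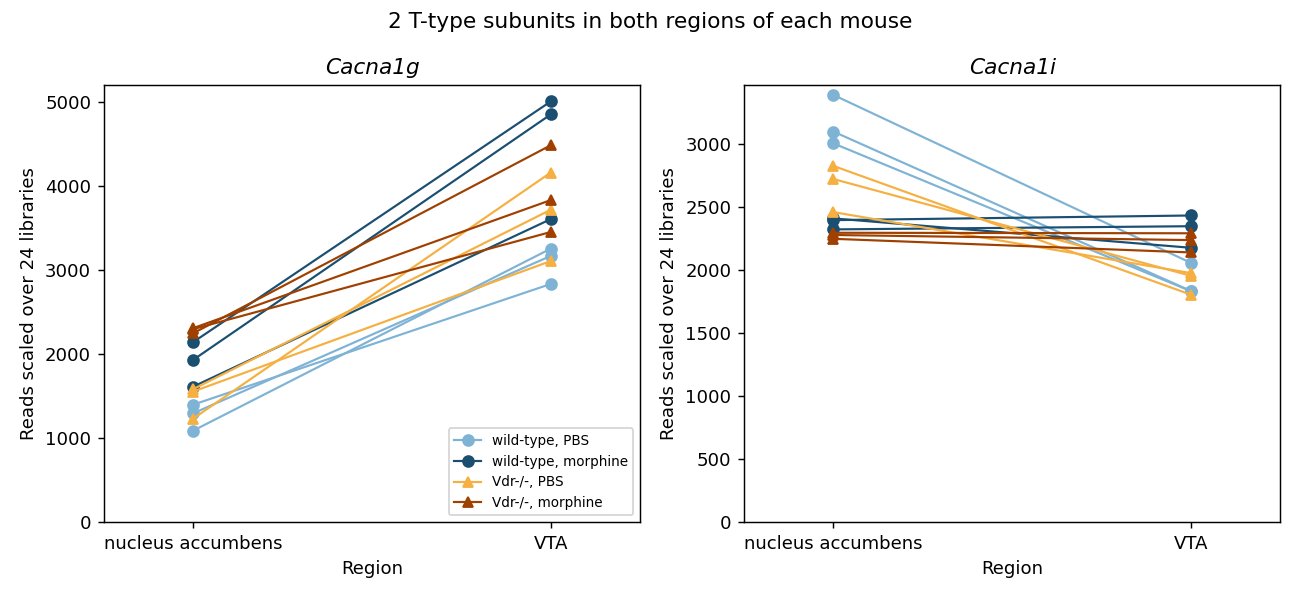
Scaled reads of the T-type subunits Cacna1g (left) and Cacna1i (right) in the nucleus accumbens and the VTA, with 1 line per mouse and colours for the 4 groups. All 12 lines rise towards the VTA for Cacna1g, and for Cacna1i the 6 PBS lines fall while the 6 morphine lines are nearly level.

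Morphine was compared with PBS within each region and genotype on the deposited values, which are reads divided by a size factor within each table. In the nucleus accumbens of Vdr-/- mice 2 of 8 members were called, 1 higher and 1 lower, against 19.1% of all genes (9.94% higher and 9.13% lower). Of the 8, 4 did not overlap between groups, as did 37.9% of all genes. Cacna1g had values of 2066, 2105 and 2120 after morphine and 1130, 1419 and 1450 after PBS. The groups did not overlap, and the mean was 2097 ± 27.6 (SD, n = 3) against 1333 ± 177 (SD, n = 3), a difference of 0.66 ± 0.08 log2 (SE, limma adjusted p = 0.000393). It was called in all 16 alternatives run on this comparison, with 0.55 to 0.73 log2. Cacna1i moved down, with 2065, 2095 and 2105 after morphine and 2246, 2497 and 2589 after PBS, a difference of -0.22 ± 0.06 log2 (adjusted p = 0.0176). The groups did not overlap, but the adjusted p rose to 0.0572 without Vdr-/- morphine mouse 2.1, to 0.0602 without mouse 2.2 and to 0.0734 without Vdr-/- PBS mouse 9. The 6 uncalled members lay between -0.17 log2 (Cacna1c) and -0.004 log2 (Cacna1b).

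In the nucleus accumbens of wild-type mice 0 of 8 members were called by limma, against 0.813% of all genes, while 3 had an unadjusted p under 0.05, as did 16.6% of all genes. The same 3 did not overlap between groups, which held for 25.5% of all genes. Cacna1g had values of 1461, 1747 and 1948 after morphine and 984, 1152 and 1259 after PBS (0.60 ± 0.13 log2, adjusted p = 0.0958). Cacna1i had 2105, 2169 and 2192 after morphine and 2675, 2802 and 3054 after PBS (-0.40 ± 0.08 log2, adjusted p = 0.069). Cacna1h had 2072, 2194 and 2205 after morphine and 2440, 2698 and 2978 after PBS (-0.32 ± 0.09 log2, adjusted p = 0.155). DESeq2 called Cacna1g (adjusted p = 0.00634) and Cacna1i (adjusted p = 0.00688), and edgeR on all 12 libraries of the region also called Cacna1h. With the trend with exon length removed, limma called Cacna1i at -0.50 log2 (adjusted p = 0.0285). It did not call Cacna1g at 0.49 (adjusted p = 0.166) or Cacna1h at -0.43 (adjusted p = 0.161). Of 10 other settings, Cacna1g stayed uncalled in 8, Cacna1h in 9 and Cacna1i in 7. Without wild-type PBS mouse 2, limma called Cacna1g at 0.62 log2 (adjusted p = 0.0428) and Cacna1i at -0.44 log2 (adjusted p = 0.00994). The value most affected by that library was that of Cacna1e, which read 12443, 13415 and 14820 after morphine and 13426, 5125 and 14004 after PBS. Its difference was 0.45 ± 0.36 log2 with all libraries (adjusted p = 0.537) and -0.02 without that one.

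Other signals moved with morphine in the same libraries. The summed medium spiny neuron markers were 1255 to 1474 CPM after morphine and 1947 to 2238 CPM after PBS in Vdr-/- mice, with 6 of 6 called lower. In wild-type mice they were 1389 to 1769 against 2229 to 2543 CPM, with 3 of 6 called lower, beside 0.813% of all genes called in either direction. The sum of 4 general neuron markers was 3422 to 3562 against 3825 to 4277 CPM in Vdr-/- mice. In wild-type mice its ranges overlapped (3301 to 3686 against 3223 to 3976 CPM). Of 5 astrocyte markers 4 were called higher and of 5 microglia markers 4 lower in Vdr-/- mice. Among all genes 9.94% were called higher and 9.13% lower there. The part of these in the results for Cacna1g and Cacna1i was not tested.

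**Figure D4:**
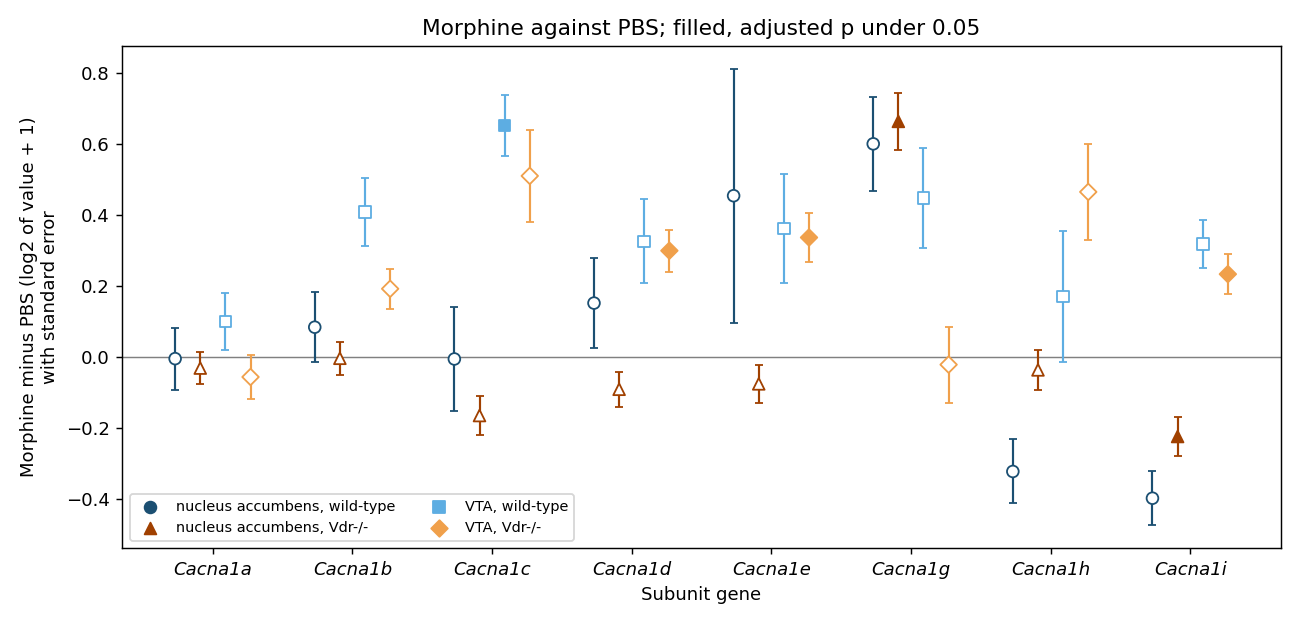
Difference between morphine and PBS for each subunit (log2 of value + 1, bars are the standard error of the limma fit) in the 4 region and genotype combinations, filled where the adjusted p is under 0.05. Cacna1g is at 0.60 and 0.66 in the nucleus accumbens with Cacna1i at -0.40 and -0.22, and in the VTA 8 of 8 wild-type values and 6 of 8 Vdr-/- values are above 0.

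In the VTA, where the deposited tables set 3 morphine against 2 PBS libraries, most differences were positive but few passed the test. In wild-type mice 8 of 8 values were positive with a median of 0.34 log2 (all genes, -0.005), 6 of 8 members did not overlap between groups (44.3% of all genes), and 1 was called, higher, against 3.65% of all genes (1.77% higher). The called member was Cacna1c, with 2530, 2717 and 3033 after morphine and 1731 and 1774 after PBS (0.65 ± 0.09 log2, adjusted p = 0.0185). The call was lost without wild-type morphine mouse 1.2 (adjusted p = 0.0972), PBS mouse 1 (0.214) or PBS mouse 2 (0.162). Cacna1b had 3776, 4424 and 4663 against 3195 and 3241 (0.41 ± 0.10 log2, adjusted p = 0.0707). Cacna1i had 2404, 2591 and 2665 against 2039 and 2054 (0.32 ± 0.07 log2, adjusted p = 0.0546). Cacna1g had 3977, 5311 and 5527 against 3525 and 3644 (0.45 ± 0.14 log2, adjusted p = 0.12). These 3 members missed the threshold although every morphine library lay above both PBS libraries. With the third PBS library of the series added from the recovered reads, Cacna1b (0.41), Cacna1c (0.53), Cacna1g (0.51) and Cacna1i (0.27 log2) were all called. Calls over all genes rose in that fit too, from 591 to 2001.

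In Vdr-/- mice 6 of 8 values were positive with a median of 0.27 log2 (all genes, -0.002), 6 of 8 did not overlap (48.4% of all genes) and 3 were called higher, against 4.74% of all genes. Cacna1d had 1363, 1401 and 1476 after morphine and 1110 and 1188 after PBS (0.30 ± 0.06 log2, adjusted p = 0.028). Cacna1e had 6136, 6141 and 7031 against 5080 and 5096 (0.34 ± 0.07 log2, adjusted p = 0.03). Cacna1i had 2432, 2541 and 2604 against 2065 and 2234 (0.23 ± 0.06 log2, adjusted p = 0.0446), opposite in sign to its change in the nucleus accumbens of the same mice. The call of Cacna1i was lost in 5 of 11 other settings and without any 1 of the 5 libraries (adjusted p = 0.0553 to 0.284). For these 3 members every morphine library lay above both PBS libraries. Leaving out 1 library at a time gave 0 to 4 called members, with 0 without Vdr-/- morphine mouse 2.2, PBS mouse 7 or PBS mouse 9 and 1 without morphine mouse 2.1. Cacna1c (0.51 ± 0.13 log2, adjusted p = 0.0507) and Cacna1h (0.46 ± 0.13 log2, adjusted p = 0.0692) lay just outside the threshold. With all 3 PBS libraries the value of Cacna1h was 0.23 log2, below its value with 2. Cacna1g had 3921, 4354 and 5090 against 4253 and 4754 in the VTA (-0.02 ± 0.11 log2, adjusted p = 0.914).

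Tissue markers and a length trend moved with these VTA results. The summed oligodendrocyte markers were 5782 to 9529 CPM in morphine libraries of both genotypes and 11197 to 12425 CPM in PBS libraries. In wild-type mice 5 of 6 dopamine neuron markers were called lower with a median of -3.62 log2, beside 3.65% of all genes called in either direction. The dopamine neuron sums overlapped in Vdr-/- mice (387 to 838 CPM after morphine and 309 to 1729 CPM after PBS). Spearman's rho between exon length and the deviation of a library from the other 11 was 0.0018 to 0.115 in the 6 morphine libraries and -0.193 to -0.0256 in the 6 PBS libraries. The median deviation of the 8 members was 0.04 to 0.25 log2 in the former and -0.22 to -0.09 in the latter. After the trend with exon length was removed from each library, Cacna1c in wild-type mice stood at 0.56 log2 (limma adjusted p = 0.0351). Cacna1b (0.38, adjusted p = 0.0777), Cacna1g (0.42, adjusted p = 0.146) and Cacna1i (0.29, adjusted p = 0.0633) were not called there. In Vdr-/- mice Cacna1d stood at 0.24 (adjusted p = 0.0372), Cacna1e at 0.26 (adjusted p = 0.0458) and Cacna1i at 0.18 (adjusted p = 0.063). The part of the tissue markers in these results was not tested.

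**Figure D5:**
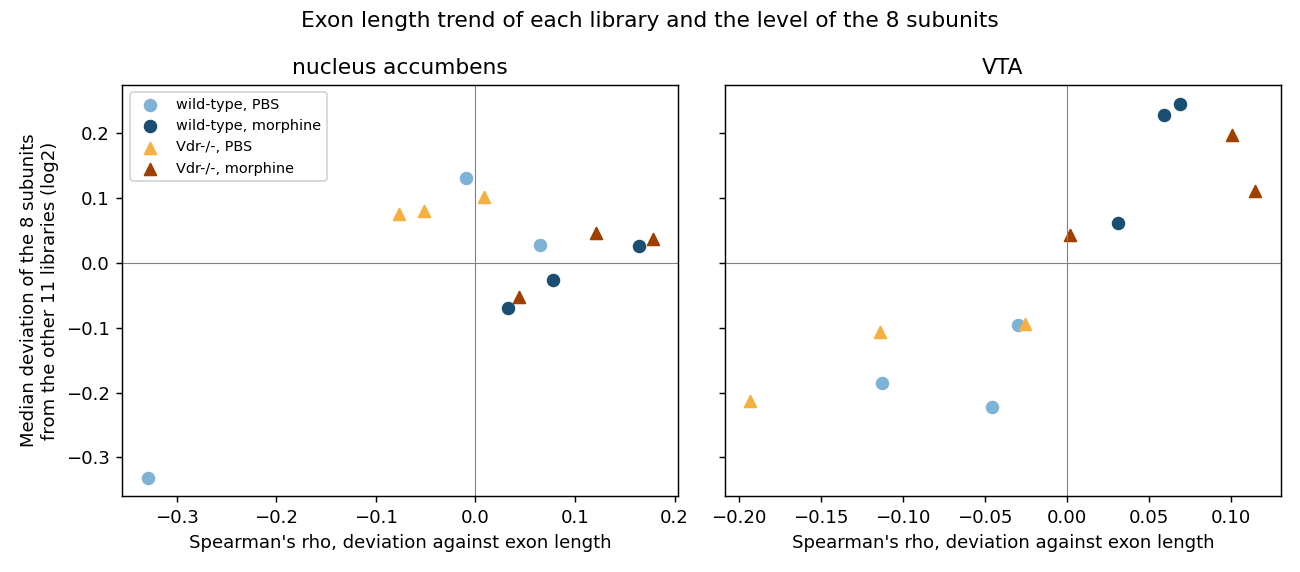
Each point is 1 library, with Spearman's rho across genes between exon length and the library's deviation from the other 11 of its region on the x axis and the median deviation of the 8 subunits (log2) on the y axis. In the VTA the 6 morphine libraries lie at positive and the 6 PBS libraries at negative values of both, and in the nucleus accumbens wild-type PBS mouse 2 stands alone at -0.329.

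Genotype was compared at each injection and region. By limma 0 of 8 members were called in any of the 4 comparisons, against 0.0690% of all genes in the nucleus accumbens after PBS, 0.192% there after morphine, 0.390% in the VTA after PBS and 0.0624% there after morphine. At an unadjusted p under 0.05 there were 2, 1, 1 and 0 members in that order, beside 8.94%, 7.73%, 14.2% and 8.77% of all genes, and edgeR and DESeq2 called 0 of 8 as well. The 2 in the nucleus accumbens after PBS were lower in Vdr-/- mice, Cacna1i by -0.23 ± 0.09 log2 (limma adjusted p = 0.517) and Cacna1h by -0.24 ± 0.09 log2 (0.526). The lowest adjusted p was 0.322 for Cacna1a in the VTA after PBS (4128 ± 55.0 in Vdr-/- against 3871 ± 28.8 in wild-type mice, SD, n = 3 each, 0.09 ± 0.04 log2). After morphine in the nucleus accumbens, Cacna1g was 1895 ± 23.9 in Vdr-/- and 1573 ± 227 in wild-type mice (0.28 ± 0.09 log2, adjusted p = 0.446). The largest value, 0.48 ± 0.36 log2 for Cacna1e in the nucleus accumbens after PBS, fell to 0.001 without wild-type PBS mouse 2.

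The interaction of genotype and morphine, which tests whether morphine acted differently on a subunit in the 2 genotypes, was called for 0 of 8 members in the nucleus accumbens (0% of all genes) and 0 of 8 in the VTA (0.0553%). By unadjusted p under 0.05 there was 1 member in each region, beside 5.80% and 12.2% of all genes, and edgeR called 0 of 8. For Cacna1g it was 0.06 ± 0.17 log2 in the former and -0.47 ± 0.20 in the latter (adjusted p = 0.387), and for Cacna1i 0.17 ± 0.09 and -0.08 ± 0.09.

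The genes that work with the alpha-1 subunits were taken from 8 lists of 64 genes, of which 60 were tested in most comparisons. Beta and alpha-2/delta subunits carry the high-voltage-activated channels to the membrane and set their gating. With the gamma family these subunits make 16 auxiliary genes, 14 of them tested. Between regions 12 of the 14 were called, 9 higher in the nucleus accumbens and 3 lower. The 4 beta subunits were all higher in the nucleus accumbens, Cacnb1 the most at 1.07 ± 0.03 log2, and so was the alpha-2/delta subunit Cacna2d3 at 1.73 ± 0.06 log2. Cacng2, or stargazin, which serves AMPA receptors, was higher in the VTA (-0.67 ± 0.05 log2). Larger differences were seen further along the pathway, in Rem2, an RGK protein that inhibits high-voltage-activated channels (3.34 ± 0.11 log2), and in Ryr1, a calcium release channel of the endoplasmic reticulum (3.46 ± 0.06 log2). In all, 48 of 60 tested pathway genes differed between regions, 36 of them higher in the nucleus accumbens, against 72.9% of all genes.

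After morphine, 30 of 60 pathway genes were called in the nucleus accumbens of Vdr-/- mice, 8 higher and 22 lower, beside 9.94% of all genes called higher and 9.13% lower. Cacna2d3 was lower (-0.52 ± 0.07 log2) and Cacna2d2 higher (0.41 ± 0.12), and 3 of 4 beta subunits were lower, by 0.18 to 0.23 log2. The RGK genes Gem (1.72 ± 0.32) and Rrad (1.16 ± 0.27 log2) and the channel adaptor Stac (1.41 ± 0.23) were higher, while Rem2 (-0.44 ± 0.11), Ryr1 (-0.63 ± 0.08) and the nuclear kinase Camk4 (-0.60 ± 0.06) were lower. Camk2d, a subunit of calcium-calmodulin kinase, was higher (0.56 ± 0.07 log2) while Camk2b was lower (-0.39 ± 0.06). In wild-type mice 0 of 60 were called there by limma. In the VTA 9 of 60 were called in wild-type mice and 8 in Vdr-/- mice, all higher after morphine, beside 1.77% and 4.74% of all genes called higher, among them Camk2a (1.08 ± 0.08) and Rem2 (1.34 ± 0.24 log2) in wild-type and Cacna2d1 (0.45 ± 0.10) and Ryr1 (0.61 ± 0.13) in Vdr-/- mice. Rrad (1.62 ± 0.31 and 0.98 ± 0.18 log2) and the channel partner Stx1a (0.69 ± 0.08 and 0.34 ± 0.06 log2) were called in both genotypes. The comparisons of genotype called 0 of these genes in 4 of 4 cases.

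Finally, the genes whose pattern was most like that of each member were found among 12446 genes over the 24 libraries, after the region means had been taken out, with Pearson's r as the measure. These values describe libraries that share group, depth and length trend, and carry no test. Cacna1e was closest to Bclaf1 (r = 0.968) and Golgb1 (r = 0.961). Cacna1g was closest to Camk2n2, an inhibitor of calcium-calmodulin kinase (r = 0.95), and to the kinase subunit Camk2d (r = 0.916). Cacna1i was closest to Dlg4, which encodes the postsynaptic scaffold protein PSD-95 (r = 0.917), and to Smpd3 (r = 0.902), Cacna1c to Celf2 (r = 0.941), Cacna1b to Ksr2 (r = 0.889), Cacna1d to Trrap (r = 0.884), Cacna1h to Dbn1 (r = 0.88) and Cacna1a to Coro2a (r = 0.837).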

How the data were processed

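RNA from bilateral micropunches (RIN of 8.0 or more per the labels) was made into directional libraries and sequenced. Per the methods and processing notes, the authors trimmed reads with Trimmomatic 0.36, aligned them with STAR 2.4.2a to GRCm38 with GENCODE genes and counted reads per gene with STAR. They divided these by DESeq2 size factors within each of 8 two-group tables. The deposited signal values are therefore normalized counts without a length correction. Of 24 libraries 22 stood in 2 tables. In 46 of 46 library columns, every value was a whole multiple of 1 step (100% of values, tolerance 0.01 reads), so reads were recovered, and 0 genes had different reads in different tables. The depth was 9328726 to 30184426 reads on genes.

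Two-group comparisons used limma 3.58.1 (lmFit, eBayes with trend) on log2(value + 1) for genes whose mean value reached 10, with Benjamini-Hochberg adjustment over all genes tested and a threshold of 0.05. Fold changes are on this scale, which understates those of low genes. Regions were compared within mice on reads scaled over 24 libraries, mouse by mouse as the sample numbers give, with an exact sign-flip permutation test (4096 flips) for each member. RPKM used exon lengths of GENCODE M21, which held 30204 of 30270 gene IDs. Of the other genes, up to 5 called per list and comparison with the largest change could be named. Groups came from the labels. The mice are separate animals, but nothing says how many cages, litters or batches they came from. The PBS libraries carried 12 index sequences (the tags that mark a library) and the morphine libraries 12, with 5 found in both. Whether injection went with a separate set of libraries is not given. Alternatives were another pseudocount (0.5 or 5), filter (none or 50) or scaling (TMM), no trend, edgeR 4.0.16, DESeq2 1.42.0, removal of the length trend, a replicate block, all PBS libraries of the VTA and leaving out 1 library. Methods were tested on simulated data. The members, lists and tests were chosen with earlier results of these data known.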

Additional observations from a re-analysis of the deposited data

Results flagged for a closer look

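The region difference of Cacna1i changed with the injection, by -0.69 log2 in wild-type mice and by -0.45 log2 in Vdr-/- mice (morphine minus PBS), and the difference between the injections was itself tested. Both values stood out for that reason. In Vdr-/- mice the call (limma adjusted p = 0.0473) was kept in only 4 of 9 other settings. It was kept in 3 of 12 fits that left out 1 mouse. The summed dopamine neuron markers (wild-type mice, 1817 to 2325 CPM after PBS and 91.9 to 351 CPM after morphine) and oligodendrocyte markers (11407 to 12425 and 5782 to 9529 CPM) differed between the same VTA libraries. The summed medium spiny neuron markers differed between the nucleus accumbens libraries of the same mice (2229 to 2543 and 1389 to 1769 CPM). The part of these markers in the values for Cacna1i was not tested. All other members of the family missed the threshold in this test. Groups of 3 mice are too small for the test of single outlying samples, so none was run.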

How the results depend on the processing

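The 0 of 8 called for genotype and for the interaction, and the 7 of 8 for region over all mice, were kept in every alternative run. For morphine in the wild-type nucleus accumbens (0 called), DESeq2 called 2, edgeR on 12 libraries 3 and removal of the length trend 1, and leaving out a library gave 0 to 2. In Vdr-/- mice there (2 called) limma without trend and edgeR on 12 libraries called 1 each, and leaving out a library gave 1 to 2. In the wild-type VTA (1 called) limma without trend called 0, DESeq2 4, edgeR on 12 libraries 5 and all PBS libraries 4, with 0 to 5 without 1 library. In the Vdr-/- VTA (3 called) these were 0 for limma without trend, 6 for DESeq2 and 1 for edgeR on 12 libraries, with 0 to 4 without 1 library. For the change of region difference with morphine, wild-type (1 called) gave 3 after removal of the length trend and 1 to 3 without 1 mouse, and Vdr-/- (1 called, Cacna1i) gave 0 without the filter, without trend, with TMM, with the length trend removed and with edgeR, and 0 to 1 without 1 mouse. Cacna1e in the wild-type nucleus accumbens (0.45 log2) turned to -0.0199 log2 without PBS mouse 2, and leaving out 1 library gave -0.0199 to 0.705. The share of Cacna1e in the sum of the 8 RPKM medians of the nucleus accumbens was 26.4% and rose to 33.2% with longest transcripts. Counts over all genes moved too. For morphine in the wild-type nucleus accumbens they were 128 by limma, 493 by DESeq2, 1123 by edgeR on 12 libraries, 221 with the length trend removed and 27 without trend. In Vdr-/- mice there they were 3018, with 1211 by edgeR on 12 libraries and 1237 without trend. In the wild-type VTA they were 591, with 1358 by DESeq2, 2001 with all PBS libraries, 3186 by edgeR on 12 libraries and 56 without trend. In the Vdr-/- VTA they were 1639 and 0 without trend, and TMM moved the share called higher from 47.28% to 36.71%. For genotype, limma called 11, 30, 64 and 10 genes (nucleus accumbens PBS and morphine, VTA PBS and morphine) and DESeq2 63, 51, 290 and 95. For the VTA interaction 9 genes became 0 by edgeR and 27 without the filter. The change of region difference was called for 1080 genes in wild-type mice (637 without trend and 709 without the filter) and 88 in Vdr-/- mice (0 and 49). The cause of these moves was not tested. Where a left-out library leaves 1 in a group, that library is assumed to vary like the others.

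The last digit of the mouse numbers is shared by the morphine groups of both genotypes, but same-digit samples did not deviate together (r = -0.063 to -0.0165 in the nucleus accumbens and -0.28 to -0.151 in the VTA), so the numbers were not treated as pairs. With a replicate block on that digit, 0 of 8 members were called in either genotype comparison, as without it. Without the mouse as a replicate block, the change of region difference with morphine in wild-type mice was called for 2 members instead of 1, and no other region count moved by over 1.5 times. Groups of 3, or of 2 for PBS in the VTA, limit what these tests can detect.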
